A study of Homo sapiens with 8 samples.

Results

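The genes described here are the matrix metalloproteases (MMPs), the ADAMTS proteases and their tissue inhibitors (TIMPs), picked by symbol from a table of gene counts. The rule on symbols was set with earlier results of these data known. The choice took 47 of the 58870 genes in the table, made up of 24 MMP genes, 19 ADAMTS genes and 4 TIMP genes. The MMP genes include MMP23A, which is annotated as a pseudogene. Expression was measured by bulk RNA sequencing in cultured cells of the line CFPAC-1, which was established from a human pancreatic ductal adenocarcinoma. The cells carried an empty vector (n = 4) or an ADRA2A transgene (n = 4), which encodes a receptor for adrenaline and noradrenaline. All 8 samples were untreated and had been in IMDM medium with serum and antibiotics for 72 hours. The promoter that drives the transgene, and whether either line was 1 clone or a pool, were not given in the sources used here. Nothing in the labels says that a group's 4 samples were grown as separate cultures, so p-values measure the spread between these samples, which may be technical.

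MMPs and ADAMTS proteases are zinc-dependent enzymes that cut proteins outside the cell, among them collagens, proteoglycans, adhesion proteins and growth factor carriers. They are made as inactive precursors, held shut by a prodomain that other proteases such as furin, plasmin or another MMP remove. TIMPs are small secreted proteins that plug the active site. In pancreatic tumours much of the matrix-degrading activity comes from stromal cells, while MMP7 is known as a protease of the epithelium itself.

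The libraries held between 14427035 and 17528915 counts. ADRA2A had 0 counts in each empty-vector library and 112, 142, 154 and 172 counts in ADRA2A replicates 1 to 4, which matches the labels. Of 10 ductal epithelial markers 9 passed the filter on low counts, the exception being CFTR with between 4 and 20 counts. Levels of these 9 were not all stable: 4 rose, 4 fell and 1 was not called (edgeR, adjusted p under 0.05). Their log2 fold changes ran from -0.43 for KRT7 to 0.79 for MUC1, and 42.7% of all genes tested were called. What these shifts add to the results was not tested. Most markers of other cell types were at or near 0: the 7 fibroblast markers together held 1.58 to 2.16 CPM (counts scaled by library size) in the empty-vector libraries and 0.900 to 1.66 CPM in the ADRA2A libraries. In the leukocyte list CD3E was at 0 in all 8 libraries, and the sum of 90.4 to 96.8 CPM against 110.1 to 121 CPM was nearly all CD68, a lysosomal gene. The endothelial list summed to 2.05 to 2.71 CPM and 2.64 to 3.35 CPM, with TEK at 0 and CDH5 at 1 count or fewer. Within it PECAM1 rose from 0.773 to 2.44 CPM and KDR fell from 1.23 to 0.482 CPM (edgeR adjusted p = 8.12e-05 and 0.00234), and their part in the results was not tested.

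Of the 47 genes, 19 had enough counts to be tested (7 MMP, 10 ADAMTS and 2 TIMP genes). The remaining 28 include 6 with 0 counts in all 8 libraries. With edgeR's quasi-likelihood test, 14 of the 19 differed between the groups at a Benjamini-Hochberg adjusted p under 0.05, 8 higher and 6 lower in the ADRA2A cells. Over all 14785 genes tested, 42.7% were called by the same rule, 21.6% as higher and 21.1% as lower. The median absolute log2 fold change was 0.54 over the 19 genes and 0.18 over all genes tested. These medians were not matched for depth: mean counts per library had a median of 226 over the 19 genes and 391 over all genes tested. A change of at least 1 on the log2 scale, in either direction, was reached by 3 of the 19, namely MMP1, MMP11 and ADAMTS10, where 4.66% of all genes tested were called and changed as much. These 3 are low, with 5 to 30, 22 to 51 and 3 to 28 counts per library. For 15 of the 19 every library of 1 group lay above every library of the other, as was so for 39.2% of all genes tested. A filter on counts keeps a low gene more readily when it is high in 1 group, so these counts describe the genes that passed and not the whole families.

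The upstream sequences of 4 genes are shown for the letters at their starts. MMP7 and MMP10 lie in the same cluster on chromosome 11 and are shown because their starts hold similar letters, although MMP7 was the most abundant of the 47 genes and MMP10 nearly absent. MMP24 and TIMP1 are shown as genes that fell and rose from starts with a GC content above the median of all promoters, TIMP1 by less than MMP24. Each line gives the 250 bases before the start site from RefSeq (GRCh38.p14), 5′ to 3′ on the gene's strand. Capitals mark TGANTCA, the letters read by AP-1 (FOS and JUN) factors, and TATAAA, the TATA box, where a search of both strands found them. The windows are chr11:102530748-102530997 (minus strand) for MMP7, chr11:102780629-102780878 (minus strand) for MMP10, chr20:35226440-35226689 (plus strand) for MMP24 and chrX:47582186-47582435 (plus strand) for TIMP1.
MMP7: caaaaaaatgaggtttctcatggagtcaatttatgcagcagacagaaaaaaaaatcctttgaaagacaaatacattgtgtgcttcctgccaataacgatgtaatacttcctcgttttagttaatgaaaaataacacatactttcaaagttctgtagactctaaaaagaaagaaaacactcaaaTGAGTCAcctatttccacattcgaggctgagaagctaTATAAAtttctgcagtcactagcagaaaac
MMP10: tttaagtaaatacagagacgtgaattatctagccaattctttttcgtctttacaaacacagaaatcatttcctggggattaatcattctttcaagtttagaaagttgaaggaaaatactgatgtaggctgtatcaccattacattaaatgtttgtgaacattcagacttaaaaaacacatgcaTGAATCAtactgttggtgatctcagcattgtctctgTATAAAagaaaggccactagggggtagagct
MMP24: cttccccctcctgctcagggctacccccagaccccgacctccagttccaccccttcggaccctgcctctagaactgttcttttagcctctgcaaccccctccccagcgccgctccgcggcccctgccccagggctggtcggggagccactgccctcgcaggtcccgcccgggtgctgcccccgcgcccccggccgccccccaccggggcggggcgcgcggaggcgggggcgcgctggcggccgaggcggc
TIMP1: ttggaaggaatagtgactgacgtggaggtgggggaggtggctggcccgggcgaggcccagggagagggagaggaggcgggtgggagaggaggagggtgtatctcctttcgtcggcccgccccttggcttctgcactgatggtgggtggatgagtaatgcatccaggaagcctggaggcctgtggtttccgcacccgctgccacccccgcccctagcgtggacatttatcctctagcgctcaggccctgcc

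In MMP7 the AP-1 letters TGAGTCA begin 67 bases before the start site and the TATA letters 30 bases before it. In MMP10 the AP-1 letters are TGAATCA, again 67 bases before the start, with the TATA letters 31 bases before it. GC content was 33.6% for MMP7, 34.4% for MMP10, 77.6% for MMP24 and 64.8% for TIMP1, with a median of 58.0% over 27305 promoters. The table held 27 of the 47 genes, and each search covered the 300 bases from 250 before to 50 after the start. TGANTCA was found in 4 of the 27 (MMP7, MMP10, MMP20 and ADAMTS12) and in 7.76% of all promoters. TATAAA was found in 7 of the 27 and in 12% of all promoters, and both motifs together in MMP7, MMP10 and MMP20 and in 1.35% of all. The cyclic AMP response element TGACGTCA was found in 1 of the 27, ADAMTS6, and in 1.98% of all promoters. TGANTCA and TGACGTCA read the same on both strands, and none of the 3 motifs can lie inside another. A match of letters is a description and not a shown binding site.

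MMP7 outweighed every other gene of the 3 families. Levels of different genes were compared as TMM-scaled CPM per kb of merged exons in GENCODE release 44. On that scale the level of MMP7 was 584 ± 35.2 in the empty-vector cells and 801 ± 18.9 in the ADRA2A cells (SD, n = 4 each). TIMP1 followed with levels per kb of 72.5 ± 2.24 and 87.4 ± 2.18, then MMP14 with 68.4 ± 3.18 and 63.2 ± 0.636, TIMP2 with 44.1 ± 1.56 and 40.5 ± 0.915, and MMP15 with 9.70 ± 0.940 and 11.9 ± 0.707. These 5 kept their order in both groups and with the longest transcript as the length. In the empty-vector cells the libraries of TIMP1 (69.7 to 74.4 CPM per kb) and MMP14 (65.8 to 72.7) overlapped. In the ADRA2A cells TIMP1 (85.7 to 90.4) lay clear of MMP14 (62.4 to 63.9). The ADAMTS genes were lower, led by ADAMTS14 at 5.40 ± 0.689 and 4.87 ± 0.315 CPM per kb (SD, n = 4 each). With the longest transcript as the length, ADAMTS1 stood above ADAMTS14 in the ADRA2A cells (5.07 against 4.88 CPM per kb). MMP24 stood 7th among all 47 genes in the empty-vector cells and 8th in the ADRA2A cells, while ADAMTS9 moved from 12th to 9th.

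**Figure D1:**
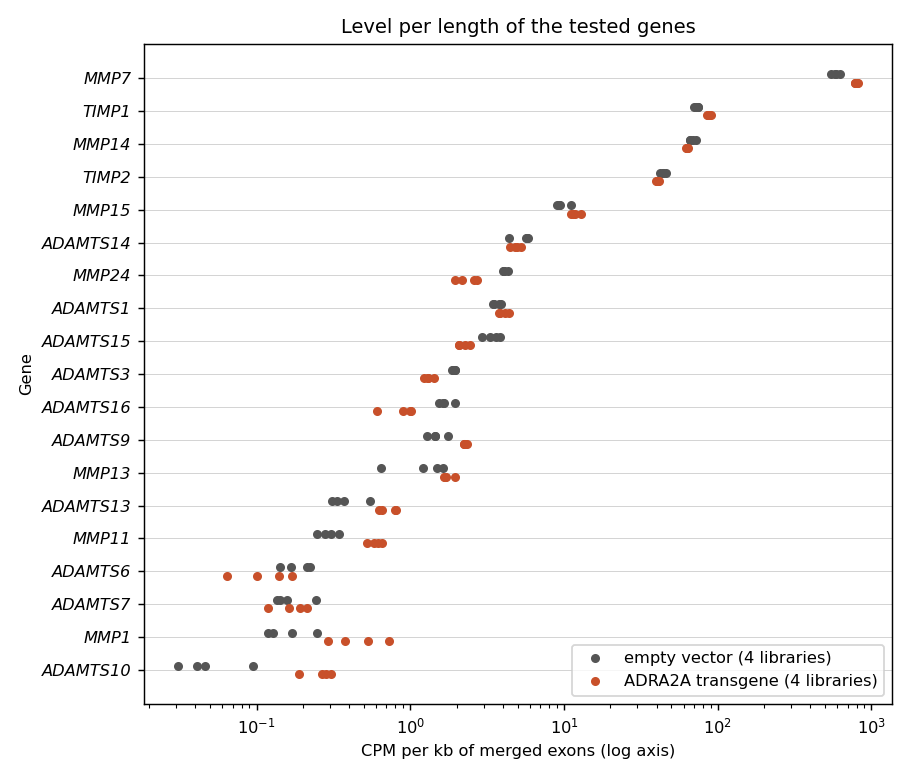
Level of each of the 19 tested genes in every library, as CPM per kb of merged exons on a log axis, with empty-vector libraries in grey and ADRA2A libraries in orange. MMP7, at 584 and 801 on average, lies far to the right of the other genes, and TIMP1, MMP14 and TIMP2 form the next group.

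MMP7 encodes matrilysin, a small secreted MMP, which cuts matrix proteins and sheds cell-surface proteins. It (ENSG00000137673.9; chromosome 11, 102520508 to 102530750, minus strand, GRCh38) had 1339, 1457, 1259 and 1367 CPM in empty-vector replicates 1 to 4. In ADRA2A replicates 1 to 4 it had 1823, 1909, 1880.3 and 1819.6 CPM. All ADRA2A libraries lay above all empty-vector libraries, and the ADRA2A libraries were the closer together. MMP7 rose 1.37-fold, a log2 fold change of 0.46 ± 0.04 (SE, adjusted p = 4.42e-09 with edgeR). It stood between the 49th and 64th place of all genes by CPM in the empty-vector libraries and between the 32nd and 34th in the ADRA2A libraries. MMP7 made up 78.0% ± 0.552 of all MMP counts in the empty-vector cells and 83.6% ± 0.488 in the ADRA2A cells (SD, n = 4 each). The summed MMP level was 1738 ± 99.6 CPM against 2222 ± 40.7 CPM, and without MMP7 it was 383 ± 20.4 CPM against 364 ± 6.18 CPM (SD, n = 4 each). The other matrilysin gene, MMP26, had 0 counts in all libraries.

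MMP7 is the first of 9 MMP genes that lie side by side on chromosome 11, all on the minus strand, over 435 kb to the end of MMP13. The others in order are MMP20, MMP27, MMP8, MMP10, MMP1, MMP3 and MMP12. Only MMP7, MMP1 and MMP13 of this cluster had enough counts to be tested. MMP27, MMP3 and MMP12 were at 0 counts in every library, MMP20 and MMP8 had at most 1 count, and MMP10 had at most 7. Among the 11 tested genes that start within 2.5 Mb of MMP7 and belong to none of the 3 families, 6 had a positive and 5 a negative log2 fold change, with a median of 0.01.

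Collagenases open the triple helix of fibrillar collagen, and the group holds MMP1, MMP8 and MMP13. MMP1 (ENSG00000196611.5; chromosome 11, 102789401 to 102798160) was scarce, with 0.351, 0.679, 0.465 and 0.327 CPM in the empty-vector libraries and 1.04, 1.98, 0.802 and 1.45 CPM in the ADRA2A libraries. These values rest on 5 to 30 counts per library, and the groups did not overlap. MMP1 passed the filter on low counts through its ADRA2A libraries, where it is higher. WTAPP1, on the opposite strand, overlaps MMP1 and had 1 to 10 counts per library. Its mean was 0.287 CPM with the empty vector and 0.415 CPM with ADRA2A. As the use of strand in counting was not given, reads of MMP1 and WTAPP1 cannot be told apart. MMP1 rose by a log2 fold change of 1.52 ± 0.38 (SE, adjusted p = 0.00276 with edgeR). MMP13 (ENSG00000137745.12) had 4.22, 4.61, 3.43 and 1.83 CPM in the empty-vector libraries, where replicate 4 was the lowest, and 4.78, 4.69, 4.81 and 5.50 CPM in the ADRA2A libraries. The groups of MMP13 did not overlap, yet its log2 fold change of 0.49 (95% interval 0.05 to 0.92) missed the threshold (edgeR adjusted p = 0.0653). Without empty-vector replicate 1 or 2 the edgeR adjusted p of MMP13 was 0.0447 or 0.028, and without replicate 4, the lowest library, its log2 fold change was 0.28 (edgeR adjusted p = 0.201).

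Stromelysins cut proteoglycans, laminin and fibronectin and activate other MMPs, except MMP11, which is set apart by its activation by furin inside the cell. MMP11 (ENSG00000099953.10; chromosome 22, 23768226 to 23784316, plus strand) had 1.58, 1.76, 1.28 and 1.44 CPM in the empty-vector libraries. Its ADRA2A libraries had 3.18, 3.37, 2.69 and 2.97 CPM, all above the highest empty-vector value. The rise was 2.01-fold, a log2 fold change of 1.01 ± 0.21 (SE, adjusted p = 0.000766 with edgeR). MMP3 was at 0 and MMP10 was not tested. The counts of MMP10 were 1, 0, 1 and 0 in the empty-vector libraries and 1, 7, 6 and 1 in the ADRA2A libraries. In an edgeR fit with no filter on low counts its log2 fold change was 2.66 ± 1.11 (SE). The unadjusted edgeR p was 0.0163 and the adjusted p 0.0600, which did not pass the threshold. P-values of the fit with no filter are not directly comparable with those of the main fit.

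The gelatinases MMP2 and MMP9, which cut denatured and basement membrane collagen, were close to absent. MMP2 had 0 to 5 counts per library and MMP9 0 to 10. The counts of MMP9 were 7, 9, 10 and 5 in the empty-vector libraries and 3, 0, 5 and 3 in the ADRA2A libraries. In an edgeR fit with no filter on low counts MMP9 had an adjusted p of 0.106, not directly comparable with the main fit. The MMP9 groups did not overlap, with a log2 fold change of -1.43 ± 0.67 (SE) in that fit and an unadjusted edgeR p of 0.0325, so at this depth a difference did not pass the adjusted threshold. MMP2 had an adjusted p of 0.431 in the same edgeR fit.

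Of the 6 membrane-type MMPs, which are anchored at the cell surface, MMP14, MMP15 and MMP24 were tested. All 3 changed, where 42.7% of all genes tested were called. MMP14, the main activator of pro-MMP2 and a collagenase of invading cells, had 318, 336, 304 and 307 CPM in the empty-vector libraries and 293, 288, 295 and 293 CPM in the ADRA2A libraries. The groups were close but did not overlap. MMP14 (ENSG00000157227.13; chromosome 14, 22836560 to 22849041, plus strand) fell by 0.11 on the log2 scale (SE 0.04, adjusted p = 0.0151 with edgeR), and without empty-vector replicate 2, its highest library, the adjusted p was 0.0596. MMP15 (ENSG00000102996.5; chromosome 16, 58025754 to 58046901, plus strand), a close relative of MMP14, went the other way. It had 39.4, 46.9, 38.0 and 40.0 CPM in the empty-vector libraries and 54.3, 47.3, 50.3 and 48.8 CPM in the ADRA2A libraries. Its lowest ADRA2A library lay just above its highest empty-vector library, and its log2 fold change was 0.29 ± 0.06 (SE, adjusted p = 0.00103 with edgeR).

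MMP24, a membrane-type MMP best known from neurons, where it acts on N-cadherin, fell most among the MMPs tested. It (ENSG00000125966.10; chromosome 20, 35226690 to 35276998, plus strand) had 17.8, 19.0, 17.5 and 17.7 CPM in the empty-vector libraries and 11.4, 8.58, 11.9 and 9.49 CPM in the ADRA2A libraries. The groups were well apart, and the level was 1.74-fold lower in the ADRA2A cells (log2 fold change -0.80 ± 0.10, SE, adjusted p = 1.76e-06 with edgeR). MMP24OS, on the opposite strand, overlaps MMP24, and its level went from 33.5 to 24.9 CPM (log2 fold change -0.42; edgeR adjusted p = 3.95e-05). The use of strand in counting was not given in the sources used here, so reads of the pair cannot be told apart. Of 61 tested neighbours within 2.5 Mb of MMP24, 44 had a negative log2 fold change and the median was -0.20, while MMP24 lay below the lowest of them (-0.74). The part of this stretch in the value of MMP24 was not tested. MMP16, MMP17 and MMP25 had at most 6 counts per library.

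**Figure D2:**
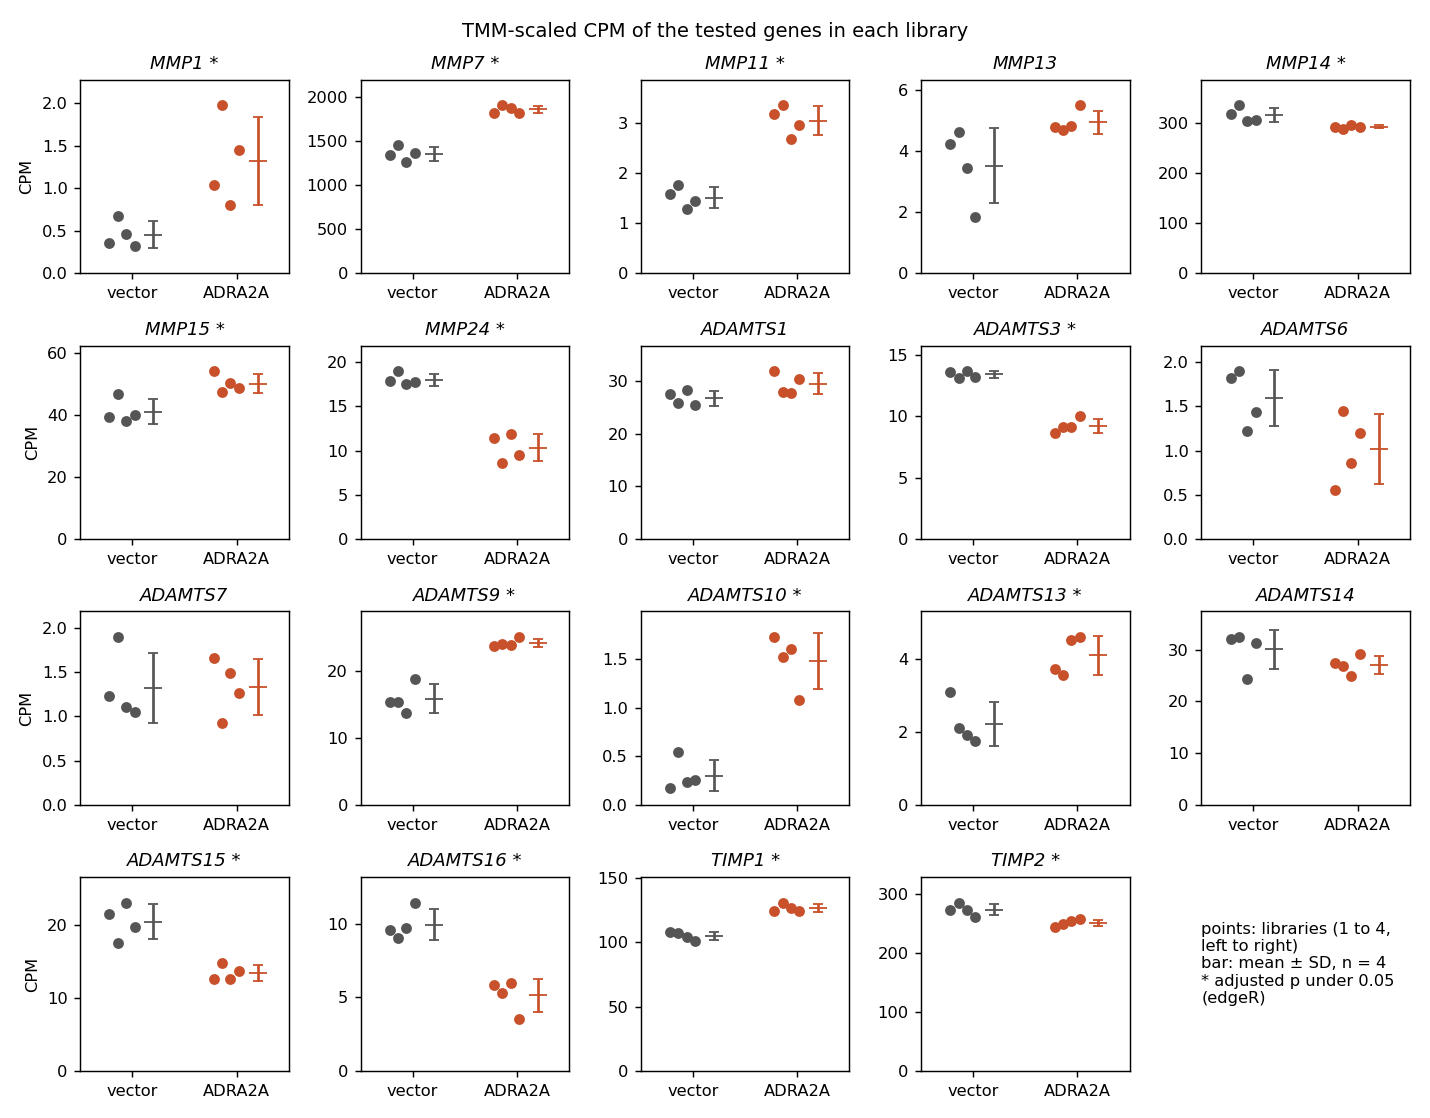
CPM of the 19 tested genes in each library, 1 panel per gene with its own linear axis from 0. Points are replicates 1 to 4 from left to right in the empty-vector (grey) and ADRA2A (orange) groups, with the mean ± SD beside them, and an asterisk marks an edgeR adjusted p under 0.05. MMP24, ADAMTS3, ADAMTS15 and ADAMTS16 lie lower in the ADRA2A libraries, and MMP7, ADAMTS9 and TIMP1 higher, without overlap.

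Of the 10 ADAMTS genes tested 3 were higher, 3 lower and 4 not past the threshold. Over all genes tested 21.6% were called higher and 21.1% lower, so an even split is not particular to this family. The aggrecanase and proteoglycanase clade, whose enzymes cut versican and related proteoglycans, held one change each way. ADAMTS9 (ENSG00000163638.13; chromosome 3, 64515654 to 64688000, minus strand), a versican-cleaving enzyme, had 15.4, 15.5, 13.8 and 18.9 CPM in the empty-vector libraries and 23.7, 24.2, 24.0 and 25.2 CPM in the ADRA2A libraries. The ADRA2A libraries were all higher, and the log2 fold change was 0.61 ± 0.08 (SE, adjusted p = 7.79e-06 with edgeR). ADAMTS15 (ENSG00000166106.3; chromosome 11, 130448645 to 130476645, plus strand), another versican-cleaving enzyme, had 21.5, 17.5, 23.1 and 19.7 CPM in the empty-vector libraries. It had 12.5, 14.8, 12.5 and 13.7 CPM in the ADRA2A libraries, all below the empty-vector range (log2 fold change -0.62 ± 0.09, SE, adjusted p = 2.03e-05 with edgeR). ADAMTS1, the third tested gene of this clade, had 26.7 ± 1.41 and 29.5 ± 1.98 CPM (SD, n = 4 each) with overlapping groups (log2 fold change 0.14, 95% interval 0.0011 to 0.28; edgeR adjusted p = 0.098). ADAMTS5 was at 0 in all libraries, and ADAMTS4, ADAMTS8 and ADAMTS20 had at most 8 counts.

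The procollagen N-propeptidases ADAMTS2, ADAMTS3 and ADAMTS14 trim the amino end of fibrillar procollagens before fibrils form. ADAMTS3 (ENSG00000156140.10; chromosome 4, 72280969 to 72569221, minus strand), also known for activating the lymphatic growth factor VEGFC, had 13.6, 13.1, 13.7 and 13.2 CPM in the empty-vector libraries and 8.65, 9.11, 9.10 and 9.99 CPM in the ADRA2A libraries. The groups were far apart for their spread, with a log2 fold change of -0.54 ± 0.09 (SE, adjusted p = 5.44e-05 with edgeR). Of 21 tested neighbours of ADAMTS3, 16 had a negative log2 fold change and the median was -0.22. The part of this in its value was not tested. ADAMTS14 had 32.0, 32.5, 24.3 and 31.3 CPM against 27.4, 26.9, 25.0 and 29.2 CPM, and replicate 3 was the one empty-vector library below the ADRA2A range. Its log2 fold change of -0.15 (95% interval -0.32 to 0.03) missed the threshold (edgeR adjusted p = 0.163), and without that library the log2 fold change was -0.24 (edgeR adjusted p = 0.00872). ADAMTS2 had 0 to 4 counts.

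ADAMTS16 fell most of all 19 tested genes and ADAMTS10 rose most. This ranking covers only genes that passed the filter on low counts, which leaves out ADAMTS12, given below. ADAMTS16 (ENSG00000145536.15; chromosome 5, 5140330 to 5320304, plus strand), an enzyme that cuts fibronectin, had 9.60, 9.03, 9.70 and 11.5 CPM in the empty-vector libraries and 5.81, 5.28, 5.96 and 3.54 CPM in the ADRA2A libraries. Its level was 1.93-fold lower (log2 fold change -0.95 ± 0.14, SE, adjusted p = 2.06e-05 with edgeR). Only 6 tested genes lay within 2.5 Mb of it, with log2 fold changes between -0.25 and 0.06. ADAMTS10 (ENSG00000142303.14; chromosome 19, 8580240 to 8610735, minus strand), which binds fibrillin and is mutated in Weill-Marchesani syndrome, averaged 0.303 ± 0.164 CPM with the empty vector and 1.48 ± 0.285 CPM with ADRA2A (SD, n = 4 each). Its counts were 3, 8, 4 and 4 in the empty-vector libraries and 25, 23, 28 and 17 in the ADRA2A libraries, clearly apart though low. ADAMTS10 passed the filter through the ADRA2A libraries, where it is high, so its rank describes only the genes that passed. The log2 fold change of ADAMTS10 was 2.29 ± 0.37 (SE, adjusted p = 5.35e-05 with edgeR).

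ADAMTS13 (ENSG00000160323.18; chromosome 9, 133414358 to 133459402, plus strand) encodes the protease that trims von Willebrand factor in blood. It had 3.10, 2.10, 1.92 and 1.77 CPM in the empty-vector libraries and 3.74, 3.56, 4.52 and 4.62 CPM in the ADRA2A libraries, with no overlap (log2 fold change 0.88 ± 0.21, SE, adjusted p = 0.00189 with edgeR). It overlaps REXO4 on the opposite strand, which was more abundant at 28.5 and 27.4 CPM (edgeR adjusted p = 0.524). As the use of strand in counting was not given, reads of ADAMTS13 and REXO4 cannot be told apart. ADAMTS6, a relative of ADAMTS10, had 1.59 ± 0.320 and 1.02 ± 0.393 CPM (SD, n = 4 each; edgeR adjusted p = 0.101, 95% interval of the log2 fold change -1.28 to -0.00018). ADAMTS7, which cuts cartilage oligomeric matrix protein, had 1.32 ± 0.394 and 1.33 ± 0.318 CPM (SD, n = 4 each; 95% interval -0.58 to 0.63). ADAMTS7 has pseudogene copies and overlaps MORF4L1, so its counts are uncertain.

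Among the ADAMTS genes that failed the filter on low counts, ADAMTS12 is given because its counts did not overlap, and it was chosen after its values were seen. It had 11, 9, 13 and 26 counts in the empty-vector libraries and 3, 4, 0 and 1 in the ADRA2A libraries. In an edgeR fit with no filter on low counts its log2 fold change was -2.77 ± 0.61 (SE; adjusted p = 4.09e-05), where 26.2% of the 25002 genes tested were called. In that fit 16 of 41 genes of the 3 families were called, the 14 above with MMP13 and ADAMTS12 added. Its p-values are not directly comparable with those of the main fit. For MMP7, at a log2 fold change of 0.46 in both, the edgeR adjusted p was 1.14e-42 there and 4.42e-09 in the main fit. For MMP14 it was 0.0156 and 0.0151. ADAMTS17, ADAMTS18 and ADAMTS19 had at most 6 counts in any library.

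The remaining MMP genes were scarce in both groups. MMP21 was at 0 counts, MMP19 had at most 5, and MMP28 had 6, 0, 2 and 3 counts in the empty-vector libraries and 4, 1, 16 and 6 in the ADRA2A libraries. MMP23A had 0 to 4 counts and MMP23B 2 to 10. They are near-identical copies on chromosome 1, and the deposited counts divide reads between them in fractions, so neither is certain. MMP23A is annotated as an unprocessed pseudogene and MMP23B as protein-coding. A gene at 0 counts could still have up to 3 counts in a library, which is 0.172 to 0.208 CPM at this depth. These limits cover counting error only.

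The inhibitors moved in opposite directions and by little. TIMP1 (ENSG00000102265.12; chromosome X, 47582408 to 47586789, plus strand), a broad MMP inhibitor also known as a secreted growth and survival factor, had 108, 107, 104 and 101 CPM in the empty-vector libraries and 124, 131, 127 and 124 CPM in the ADRA2A libraries. All ADRA2A libraries were higher, with a log2 fold change of 0.27 ± 0.04 (SE, adjusted p = 1.41e-05 with edgeR). Of the 54 tested neighbours of TIMP1, 44 had a positive log2 fold change and the median was 0.13. The part of this in its value was not tested. TIMP2 (ENSG00000035862.12; chromosome 17, 78852977 to 78925387, minus strand), which joins MMP14 in activating pro-MMP2, had 274, 286, 273 and 262 CPM in the empty-vector libraries and 245, 249, 254 and 257 CPM in the ADRA2A libraries. The groups came close without overlap, and TIMP2 fell by 0.12 on the log2 scale (SE 0.04, adjusted p = 0.00753 with edgeR). TIMP3, the inhibitor that also blocks ADAMTS enzymes, had 0 to 3 counts per library, and TIMP4 had 3 to 12. Summed over the family, TIMP levels were 379 ± 12.6 and 378 ± 6.26 CPM (SD, n = 4 each).

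**Figure D3:**
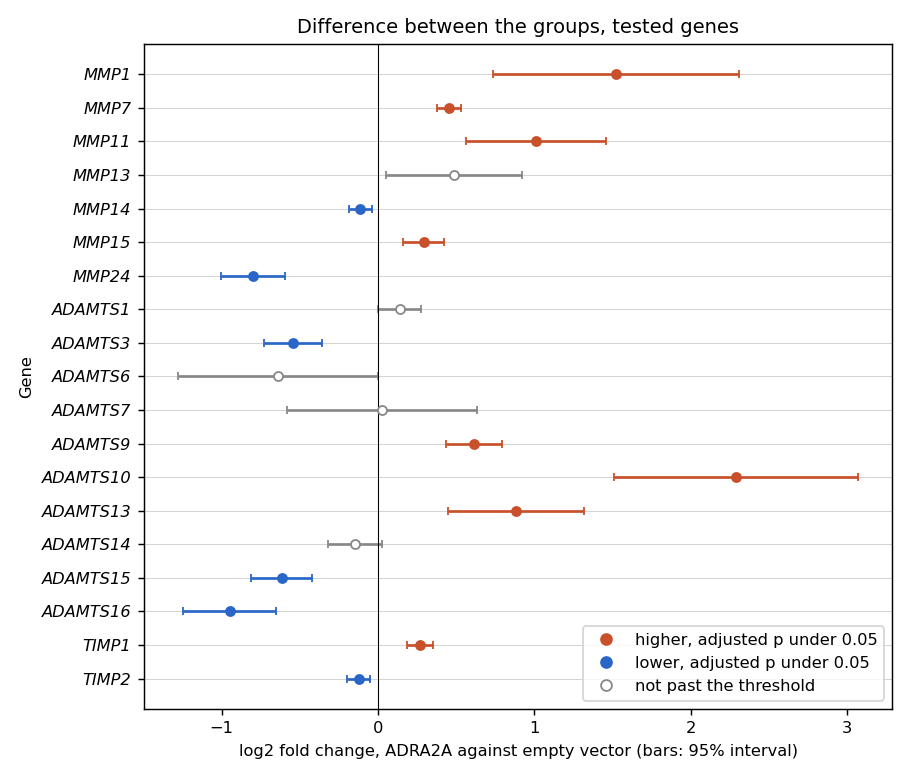
Log2 fold change of each of the 19 tested genes, ADRA2A against empty vector, with its 95% interval from edgeR. Orange marks the 8 genes that rose, blue the 6 that fell and open grey the 5 that did not pass the threshold; ADAMTS10 reaches 2.29 and ADAMTS16 -0.95.

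Chromosome position was set beside each change, since genes of some stretches differ together between the groups. For 10 of the 14 changed genes, MMP14 among them, the median log2 fold change of the tested neighbours within 2.5 Mb lay between -0.08 and 0.05. The other 4 are MMP15, whose neighbours had a median of -0.12 against its own rise, and MMP24, ADAMTS3 and TIMP1, which moved the same way as most of their neighbours. Among the 10, TIMP2 lay on the same side as its neighbours, of which 34 of 55 had a negative log2 fold change with a median of -0.08. So did ADAMTS15, with 8 of 13 negative and a median of -0.08, while its own value (-0.62) lay below the lowest of them (-0.53). The medians for ADAMTS16 (-0.03), MMP1 (0.02) and MMP7 (0.01) were also on the gene's own side. Those for MMP11, MMP14, ADAMTS9, ADAMTS10 and ADAMTS13 were on the other side. With a window of 1 Mb the median changed sign for MMP1, MMP7, MMP14, ADAMTS9, ADAMTS10 and ADAMTS15, so their side depends on the window. In a bulk sample fewer expressing cells and less RNA per cell cannot be told apart for any of these genes.

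**Figure D4:**
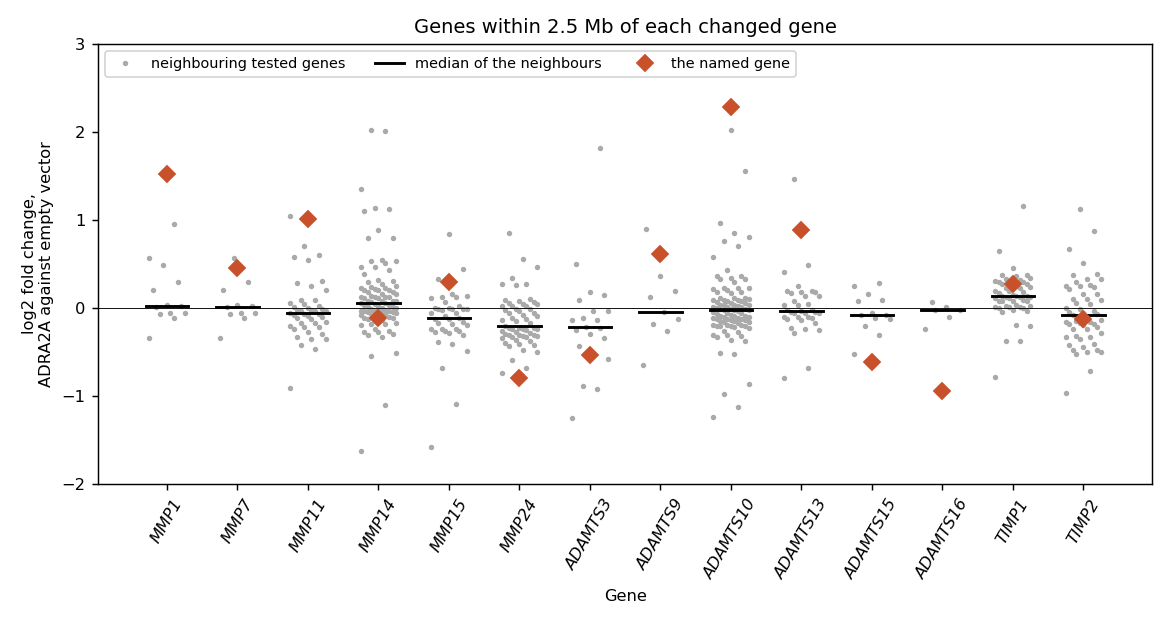
Log2 fold change of the 14 changed genes (orange diamonds) and of the tested genes that start within 2.5 Mb of each (grey points, black bar at their median). The diamonds of ADAMTS10, MMP1, ADAMTS16, ADAMTS15 and MMP24 lie outside the range of their neighbours. That of TIMP2 lies close to its neighbours' median.

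Genes that activate, inhibit or resemble these proteases were read from 9 lists holding 95 genes, of which 64 were tested, 21 rising and 13 falling, where 42.7% of all genes tested were called. Proprotein convertases remove the prodomains of membrane-type MMPs and ADAMTS enzymes. Of 5 convertases tested, 3 rose and 0 fell, where 21.6% of all genes tested rose and 21.1% fell, and 1 of the 3, PCSK4, depended on single libraries. PCSK6 went from 6.70 ± 0.642 to 24.6 ± 1.76 CPM (log2 fold change 1.88 ± 0.09, SE, adjusted p = 3.31e-12 with edgeR) and PCSK5 from 7.47 ± 0.554 to 14.9 ± 0.461 CPM (log2 fold change 0.99; edgeR adjusted p = 4.19e-08; SD, n = 4 each). PCSK4, at 1.59 and 2.67 CPM, had an edgeR adjusted p of 0.0263, which reached 0.0964 when 1 library was left out (empty-vector replicate 1 or 2, or ADRA2A replicate 1 or 2, each ended the call). FURIN, the main convertase, was at 149 ± 3.55 and 154 ± 4.24 CPM (SD, n = 4 each; 95% interval of the log2 fold change -0.02 to 0.13).

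The plasminogen system makes plasmin, a protease that activates several pro-MMPs. Of 10 genes tested 3 rose and 2 fell, where 21.6% of all genes tested rose and 21.1% fell. PLAU, the urokinase gene, had 1185 ± 44.5 and 1157 ± 56.4 CPM (SD, n = 4 each; edgeR adjusted p = 0.471) and its receptor PLAUR 36.2 ± 1.96 and 35.5 ± 1.36 CPM (SD, n = 4 each; edgeR adjusted p = 0.73). PLAT, tissue plasminogen activator, rose from 256 to 379 CPM, and SERPINE2, an inhibitor of plasminogen activators and thrombin, from 62.7 to 124 CPM (edgeR adjusted p = 4.52e-08 and 2.84e-12). LRP1, an endocytic receptor that clears proteases and their inhibitors, rose from 17.8 to 36.4 CPM, and PLGRKT, a plasminogen receptor, fell from 17.2 to 10.9 CPM (edgeR adjusted p = 8.47e-08 and 1.1e-05).

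Among other inhibitors and partners, 2 of 9 tested genes rose and 2 fell, beside 21.6% and 21.1% of all genes tested. LCN2, which binds MMP9, rose from 352 ± 39.9 to 974 ± 16.5 CPM (SD, n = 4 each; log2 fold change 1.47; edgeR adjusted p = 5.97e-14), while MMP9 itself had 10 counts or fewer in every library. TFPI2, a serine protease inhibitor, rose from 339 to 458 CPM, and SPOCK3, a testican, fell from 4.76 to 3.03 CPM (edgeR adjusted p = 5.33e-09 and 0.0072). PCOLCE2 had an edgeR adjusted p of 0.0437 at 2.21 and 1.40 CPM, lost in 10 of 14 alternatives. RECK, a membrane-bound MMP inhibitor, had 1.38 and 1.68 CPM (95% interval of the log2 fold change -0.31 to 0.89), and BSG, an inducer of MMPs, 300.0 and 298 CPM (95% interval -0.09 to 0.08).

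The related proteases and the substrates changed in part. Beside the counts given here, 21.6% of all genes tested were called higher and 21.1% lower. Of 10 ADAM genes tested, 4 rose and 1 fell: ADAM28 rose from 69.3 to 155 CPM (edgeR adjusted p = 2.6e-11), and the sheddases ADAM10 and ADAM17 rose by 0.22 each on the log2 scale (edgeR adjusted p = 2.49e-05 and 0.000675). ADAM23, which lacks protease activity, fell from 9.21 to 1.73 CPM (edgeR adjusted p = 1.22e-09). Of 5 ADAMTS-like genes, which carry ADAMTS ancillary domains without the protease, PAPLN and ADAMTSL4 rose, by log2 fold changes of 1.14 and 1.03 (edgeR adjusted p = 1.1e-06 and 0.00216). BMP1, the procollagen C-proteinase, rose by 0.19 on the log2 scale (edgeR adjusted p = 0.0056), 1 of 2 astacin proteases tested. Of 3 proteoglycan substrates tested, VCAN, the versican cut by ADAMTS9 and ADAMTS15, rose from 97.9 ± 3.52 to 256 ± 18.5 CPM (SD, n = 4 each; log2 fold change 1.39; edgeR adjusted p = 2.26e-14). Of 5 collagen substrates tested 4 fell: COL1A1 from 78.4 to 23.9 CPM, COL5A1 from 8.26 to 4.75 CPM (edgeR adjusted p = 3.41e-15 and 3.24e-05), COL4A1 from 237 to 138 CPM and COL4A2 from 412 to 276 CPM (edgeR adjusted p = 6.31e-12 and 2.05e-11).

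Of 15 AP-1, ETS and RUNX factors, which are known to act on MMP promoters, 5 rose and 4 fell. The shares over all genes tested were 21.6% and 21.1%. FOS rose from 11.4 to 41.3 CPM and JUNB from 39.9 to 62.2 CPM, while FOSL1 fell from 253 to 169.8 CPM and ETS1 from 264 to 183 CPM (edgeR adjusted p = 2.23e-12, 1.71e-08, 1.12e-09 and 4.92e-10). The AP-1 letters TGANTCA, marked above for MMP7, were not found in the promoter of any other changed gene among the 9 that the promoter table holds. That search took exact letters only. Near matches, such as tgagtaa in the printed TIMP1 sequence, were not counted, so an AP-1 site in these promoters is not excluded. No link between the factors and the proteases was tested.

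**Figure D5:**
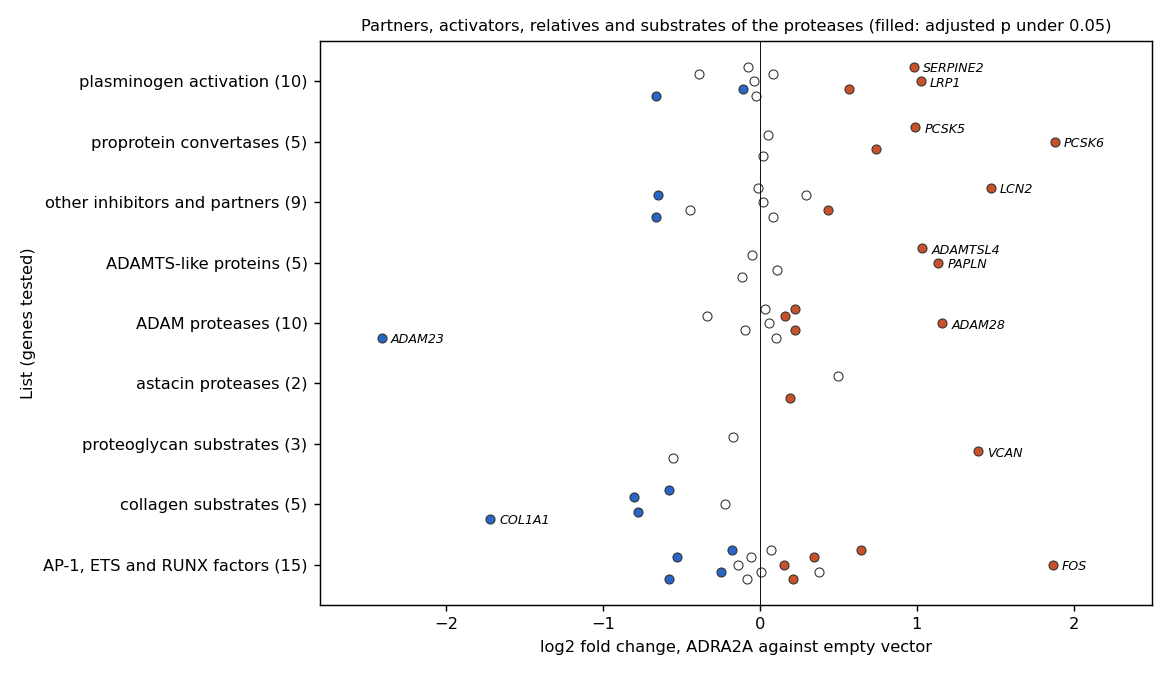
Log2 fold change of the 64 tested genes of the 9 lists, 1 row per list with the number tested, filled where the edgeR adjusted p is under 0.05 (orange higher, blue lower in the ADRA2A cells) and open otherwise. PCSK6, FOS, LCN2 and VCAN reach the highest values and ADAM23 and COL1A1 the lowest.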

How the data were processed

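RNA of 8 CFPAC-1 samples was measured, and the values the authors deposited are estimated counts of each gene, in 1 table. Cutadapt, STAR, RSEM, DESeq2 and hg38 are named in the submitters' processing notes, with no version or order. The annotation release and the use of strand were not given in the sources used here. The counts were rounded to whole numbers and 14785 genes kept by filterByExpr (edgeR 4.0.16, R 4.3.3; minimum count 10). TMM factors were applied, and the groups were compared by edgeR's quasi-likelihood test on all 8 libraries, with Benjamini-Hochberg adjustment over all genes tested and a threshold of 0.05. Standard errors are the log2 fold change divided by the root of F. Libraries held 14427035 to 17528915 counts, so a gene under about 10 counts per library was rarely testable. The fit was tested on simulated data. Alternatives were other factors, DESeq2 1.42.0, limma voom 3.58.1, other filters, a replicate block and leaving out each library. Positions are from GENCODE release 44 by Ensembl identifier (47 of 47 matched). Where RefSeq gave a gene several promoter entries, the first was searched.

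Values in every library are given for members with an adjusted p under 0.05 and a mean of 1 CPM or more in the group with the higher mean, and all other members by values or count ranges. Up to 4 called genes per list were named by smallest p, with FURIN, RECK, PLAU, PLAUR and BSG. The members and lists were chosen with earlier results of these data known, and the roles were assigned from textbook knowledge.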

Additional observations from a re-analysis of the deposited data

Results flagged for a closer look

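In 38 groups of 4 libraries (19 tested genes in each of the 2 groups), 2 held a library far from the other 3, where chance flags about 1 in 20. MMP13 had 5.50 CPM (87 counts) in ADRA2A replicate 4, above 4.69 to 4.81 CPM in the other 3 ADRA2A libraries. ADAMTS14 had 24.3 CPM (419 counts) in empty-vector replicate 3, below 31.3 to 32.5 CPM in the other 3 empty-vector libraries.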

How the results depend on the processing

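The 14 calls kept their direction in every one of the 15 alternative fits where they were called. The count of called members was 14 with RLE or upper quartile factors, DESeq2 and the replicate block, 15 with limma voom, 16 with no filter and 11 with a mean of at least 50 counts. At that last filter 5 members were called higher in place of 8, because MMP1, MMP11 and ADAMTS10 were not tested. Over the fits that left out 1 library the count lay between 14 and 15. MMP14 lost its call without empty-vector replicate 2 (log2 fold change -0.08). MMP13 passed the threshold with limma voom (adjusted p = 0.0414), with no filter (adjusted p = 0.0235) and without empty-vector replicate 1 or 2, and had a log2 fold change of 0.28 (adjusted p = 0.201) without empty-vector replicate 4. ADAMTS14 passed without empty-vector replicate 3 (log2 fold change -0.24). ADAMTS12 passed the count filter and was called without empty-vector replicate 2 and without ADRA2A replicate 1 or 2. ADAMTS7, which was not called, changed sign: its log2 fold change over the leave-one-out fits lay between -0.088 and 0.24, and was -0.00799, -0.054, -0.067, -0.088 and -0.036 without empty-vector replicates 1, 3 and 4 and ADRA2A replicates 1 and 3. The cause was not tested. With upper quartile factors the share of higher genes among all calls was 46.4% in place of 50.6%, with all 14 members still called.

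Same-numbered samples did not deviate together (correlations between -0.04 and 0.07 over 4 pairs), so the replicate block rests on a number alone; under the block 14 members were called, the same 14, and among the list genes PCOLCE2 lost its call and ADAMTSL3 (adjusted p = 0.0571 without the block) gained one. With the longest transcript as the length MMP7 was at 1024 and 1404 CPM per kb. With a window of 1 Mb the median of the neighbours was 0.28 for ADAMTS1, from 1 gene, and 0.07 for ADAMTS9. The median also changed sign for MMP1, MMP7 and MMP13 (-0.02 each), MMP14 (-0.03), ADAMTS10 (0.0006) and ADAMTS15 (0.01). Counts of at most 12 per library limit what can be seen of the gelatinases, TIMP3 and TIMP4. The samples are 1 cell line with 1 transgene.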
